A study of Mus musculus with 2 samples.

Results

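The nuclear genes of oxidative phosphorylation were examined for CTCF binding at their promoters in newborn mouse kidney. Members were the protein-coding genes of the GENCODE M21 annotation whose symbols begin with Ndufa, Ndufb, Ndufc, Ndufs, Ndufv, Uqcr, Cox4 to Cox8 or Atp5, together with Sdha, Sdhb, Sdhc, Sdhd and Cyc1. The rule found 94 genes among 21728 protein-coding genes on chromosomes 1 to 19 and X. Of these, 46 belong to complex I, 4 to complex II, 9 to complex III, 18 to complex IV and 17 to complex V. The prefixes also take 10 genes that encode assembly or supercomplex factors and no subunit, 8 of them Ndufaf genes.

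Chromatin immunoprecipitation and sequencing (ChIP-seq) with an antibody to CTCF was carried out on whole kidney of B6NCrl mice at postnatal day 0. The 2 libraries form 1 group; the labels name no genetic change and no treatment. Both libraries carry the same biosample and donor identifiers, so the spread between them may be technical. Whole kidney mixes many cell types, and a peak list holds no measure by which the labelled tissue could be checked. The lists hold no read counts, so the depth of each library is unknown.

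Oxidative phosphorylation takes place in the inner mitochondrial membrane. Complexes I and II pass electrons from NADH and succinate to ubiquinone, complex III passes them to cytochrome c, complex IV passes them to oxygen, and complex V, the ATP synthase, uses the resulting proton gradient to make ATP. Complex II is encoded wholly in the nucleus, whereas the other complexes combine nuclear subunits with subunits encoded by mitochondrial DNA, and the reabsorbing tubules of the kidney depend on this pathway. CTCF is a zinc-finger DNA-binding protein known for its part in chromatin loops and insulators, and it also binds at many promoters.

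CTCF peaks lay at the promoters of 48 of the 94 genes. A promoter peak is here an optimal peak, from the authors' list thresholded for reproducibility between the libraries, whose summit lay within 1000 bp of any annotated transcription start site (TSS) of the gene. The share of members was 51.1% (95% Wilson interval 41.1 to 60.9), against 39.4% of all protein-coding genes. Such intervals cover counting error only. Without the 10 factors the share was 51.2%, or 43 of 84 subunit genes. The promoters of members are rich in CpG dinucleotides: the median ratio of observed to expected CpG within 500 bp on each side of the gene's 5′ end was 0.724, against 0.558 over all genes. Among genes with a ratio in the middle 50% of the members' range, 0.614 to 0.79, 26 of 46 members (56.5%) and 2834 of 5008 genes in all (56.6%) had a promoter peak. The excess of members over all genes was thus not seen among genes of like CpG ratio.

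The complexes differed in how many of their genes had a promoter peak. Complex III had one at 8 of 9 genes (88.9%, 95% Wilson interval 56.5 to 98). Complex II had one at 3 of 4 (75%, 30.1 to 95.4) and complex V at 11 of 17 (64.7%, 41.3 to 82.7). Complex I had one at 22 of 46 (47.8%, 34.1 to 61.9), and complex IV at 4 of 18 (22.2%, 9 to 45.2). The intervals of complexes III and IV did not overlap in the optimal list. They did overlap in the conservative list, the shorter of the authors' reproducibility-thresholded lists, where complex III had 5 of 9 (55.6%, 26.7 to 81.1) and complex IV again 4 of 18. They also overlapped in each library alone, where complex IV had 7 of 18 (38.9%) and complex III had 7 of 9 in replicate 1 and 6 of 9 in replicate 2. The background for all genes was 36.6% in the conservative list, 39.1% in replicate 1 and 39.2% in replicate 2. A library alone is represented by its highest-signal peaks, as many as the optimal list holds, called its upper set below. The order of the complexes therefore rests in part on which list is read.

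**Figure D1:**
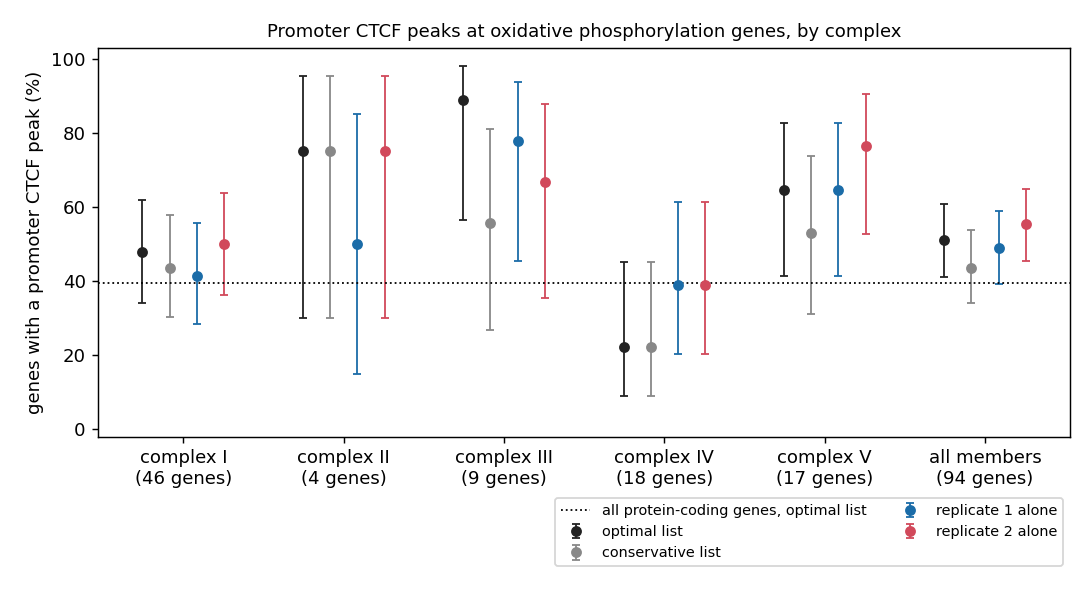
Share of genes with a promoter CTCF peak (%, vertical axis) in each complex and in all 94 members, for 4 peak lists. Points are shares, bars are 95% Wilson intervals, and the dotted line is the 39.4% of all protein-coding genes in the optimal list; complex III lies highest at 88.9% and complex IV lowest at 22.2% in the optimal list, and the gap narrows in each library alone.

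Signal strength ordered the complexes in another way. The authors' signal value was read as a percentile, 100 being the highest of the optimal list. The strongest promoter peak of each member had a median percentile of 57.8 (range 1.66 to 99.4), against 50.1 over all genes with a promoter peak. In replicate 1 alone the medians were 57.8 and 50, and in replicate 2 alone 48.9 and 50.9. The direction of this difference thus turned, but each library alone brings its own upper set of peaks and genes. The optimal peaks that were in a library's upper set had medians of 64.7 and 54.5 in replicate 1. In replicate 2 these were 61.7 and 57.9. These medians leave out the peaks outside the upper set, among them the weakest of the members. Of the distinct promoter peaks, 63.3% of the members' and 71.6% of all were in both upper sets. The medians of the upper sets therefore cannot settle the direction. In the optimal list the median was 73.1 in complex I, 53.9 in complex III, 51.5 in complex V, 32.8 in complex IV and 22.0 in complex II. Among optimal peaks in each library's upper set complex I was also highest, at 83.9 in replicate 1 and 80.4 in replicate 2. The others changed order. Complex V (69.9) lay above complex III (60.7) in replicate 1 and below it in replicate 2 (48.9 against 56.4). Complex II (35.3) lay above complex IV (22.8) in replicate 1 and below it in replicate 2 (27.4 against 44.1). Peaks in the highest decile of the optimal list lay at 11 members, or 11.7% (95% Wilson interval 6.66 to 19.8), against 4.27% of all genes. Of these, 7 belong to complex I (15.2% of its 46 genes), 1 to complex III (11.1% of 9) and 3 to complex V (17.6% of 17). Complexes II and IV, with 4 and 18 genes, had none. The Wilson intervals of all the complexes overlapped. All 11 summits lay within 200 bp of an annotated TSS, 10 of them upstream of it. That TSS need not be the gene's 5′ end: at Atp5g2 it lay inside the gene. No other protein-coding gene had a TSS within 1000 bp of any of the 11 summits. No such counts are given here for all genes' peaks in the highest decile, so these traits cannot be called particular to the members.

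**Figure D2:**
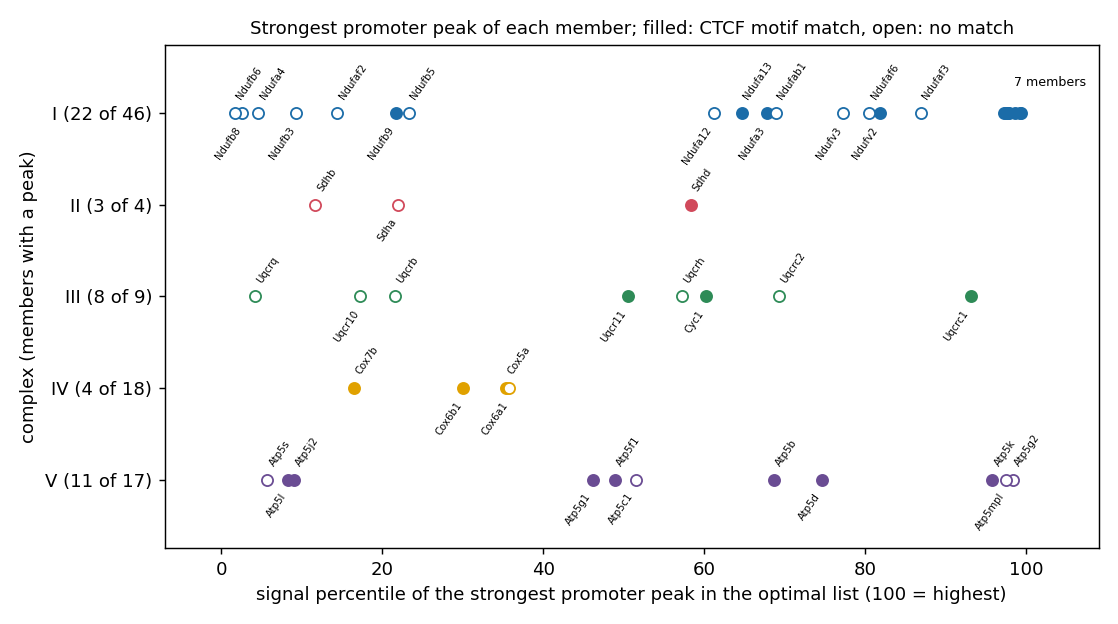
Signal percentile of the strongest promoter peak of each member (horizontal axis, 100 is the highest signal of the optimal list) by complex, filled where a CTCF motif lay within 100 bp of the summit and open where none did. The 7 unlabelled points at the right of complex I, Ndufa6, Ndufaf4, Ndufc1, Ndufb7, Ndufb10 and Ndufv1 among them, lie between 97.3 and 99.4; all peaks of complex IV lie at or below 35.8.

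A CTCF motif lay under 9 of these 11 strong peaks. Over all promoter peaks in the highest decile the share was 92.9%. The motif is shown for 8 of the 9 because it is the sequence at the strongest sites and the selection of genes did not use it. A 19 bp CTCF weight matrix was learned from the peaks, and a match is a score of 11.5 bits or more, which 1 in 10000 control positions passed on either strand. Capitals mark the 19 matched bases, and lower case the flanking bases; each is written 5′ to 3′ on the strand that carries the match, in mm10 (GRCm38.p6).
Ndufa6 (chr15:82354422-82354450, forward strand): ctgagGAACCACCAGGAGGCGCAGcgtcg
Ndufaf4 (chr4:24898019-24898047, forward strand): cctccCGGCCACCAGGGGGCGACGagcgc
Ndufc1 (chr3:51409024-51409052, reverse strand): cagttCTGCTGCCAGGGGGCGCTGcgctc
Ndufb7 (chr8:83566656-83566684, forward strand): cctccACACCGCCAGGGGGTGTCAgcgag
Ndufb10 (chr17:24724489-24724517, reverse strand): gctggGGACCACAAGGGGGTGCTCgagag
Ndufv1 (chr19:4012918-4012946, reverse strand): cttggGATCCAGCAGAGGGCGACAcgtga
Uqcrc1 (chr9:108936608-108936636, forward strand): cttgcTGCCCAACAGGGGGCGACTgagca
Atp5k (chr5:108434456-108434484, reverse strand): tcctcCAGTCGCTAGGGGGCAGCGctttc
The peaks of this strength at Atp5g2 and Atp5mpl had no match. Their best-scoring 19 bases, in capitals, reached 10.6 bits at Atp5g2 and 7.5 bits at Atp5mpl.
Atp5g2 (chr15:102671195-102671223, reverse strand): cctgtTGGACGCCAGGTGGAGTGCttgtc
Atp5mpl (chr12:111967071-111967099, reverse strand): cccggGCGACCACTGGGGGCGCTGtggtg
A score below the threshold says only that these letters do not resemble the matrix enough.

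Complex I, the NADH dehydrogenase and entry point of electrons from NADH, held the strongest promoter peaks of the pathway. Ndufa6, an accessory subunit, had the highest, at percentile 99.4 in the optimal list, 99.2 in replicate 1 and 99.4 in replicate 2. It lay at chr15:82354278-82354607, in intergenic sequence, with its summit 113 bp upstream of a TSS. Ndufaf4, an assembly factor, reached percentile 99.3, and 98.3 and 99.2 in the libraries, at chr4:24897856-24898210, 52 bp upstream. Ndufc1, a small accessory subunit, reached 98.6, and 97.4 and 99.1 in the libraries, at chr3:51408879-51409176, 38 bp upstream. All 3 stood at or above percentile 97.4 in both libraries.

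The next peaks of complex I were at 2 accessory subunits of its membrane arm. Ndufb7 had percentile 97.9, and 98.3 and 97.1 in the libraries, at chr8:83566519-83566824, with the summit 5 bp into the untranslated first part of the gene. Ndufb10 had percentile 97.7, and 99.0 and 96.3 in the libraries, at chr17:24724333-24724650, 10 bp upstream. In both genes replicate 1 placed the peak higher than replicate 2, whereas replicate 2 placed those of Ndufc1 and Ndufaf4 higher.

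Core subunits of complex I carry its flavin and iron-sulfur clusters. Ndufv1, which binds NADH and the flavin, had a promoter peak at percentile 97.3, and 95.2 and 97.8 in the libraries, 128 bp upstream. Ndufv2 had one at 81.8, and 85.6 and 79.3 in the libraries, 326 bp upstream. Among the other core subunit genes, Ndufs1, Ndufs3, Ndufs7 and Ndufs8 had none in the optimal list. Over the whole complex, 18 of 38 subunit genes (47.4%) and 4 of 8 Ndufaf assembly factor genes had a promoter peak, against the 39.4% of all genes.

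When only the strongest promoter peak of each member is read, complex I also held the 2 weakest, at Ndufb6 (percentile 1.66) and Ndufb8 (2.65). Ndufa4 had percentile 4.6 and Ndufb3 9.33; the last is shared with Fam126b, whose TSS is 26 bp from the summit. The optimal peaks of Ndufb6, Ndufa4 and Ndufb3 were matched in the upper set of neither library, and that of Ndufb8 in replicate 2 only, although Ndufa4 had another promoter peak in the upper set of replicate 2. The Ndufb group thus ran from 1.66 to 97.9. Ndufa4 is counted here by its prefix, although the protein is known as a component of complex IV; moved there, it gave complex IV 5 of 19 genes (26.3%) and complex I 21 of 45 (46.7%).

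Complex II, succinate dehydrogenase, takes part in both the citric acid cycle and the respiratory chain. Sdhd, a membrane anchor, had a promoter peak at percentile 58.4, and 54.9 and 59.7 in the libraries. Its summit lay 205 bp upstream of Sdhd and 107 bp into Timm8b, the mitochondrial import gene on the other strand, in a coding exon of the latter (chr9:50603927-50604031). Sdha, the flavoprotein, had one at percentile 22.0, and 15.7 and 13.8 in the libraries, 20 bp upstream of its TSS and 9 bp upstream of that of the divergent gene Ccdc127. Sdhb, the iron-sulfur subunit, had one at 11.7; it was in the upper set of replicate 2, at percentile 27.4, and not in that of replicate 1. Sdhc, the other anchor, had none, and its nearest optimal summit was 8943 bp away. Of the 3 peaks only that of Sdhd had a motif match.

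Complex III, the ubiquinol to cytochrome c reductase, had a promoter peak at the largest share of its genes in the optimal list; complex II exceeded it in the conservative list (75% against 55.6%), and complexes V (76.5%) and II (75%) did in replicate 2 alone, where complex III had 66.7%. Uqcrc1, a core subunit, had the strongest peak, at percentile 93.1, and 92.5 and 91.8 in the libraries, 12 bp upstream of a TSS (chr9:108936348-108936773). Uqcrc2, the other core subunit, had one at 69.3, and 65.1 and 72.0 in the libraries, 39 bp upstream, with no motif match. Cyc1, which hands electrons to cytochrome c, had one at 60.2, and 63.7 and 54.7 in the libraries. It lay in a coding exon 158 bp downstream of a TSS inside the gene. Within 1000 bp of the gene's 5′ end Cyc1 had only a peak at percentile 2.18. Uqcrh, the hinge protein, had 3 promoter peaks, more than any other member, the strongest at 57.3 in an intron. Uqcr11 had one at 50.5, 763 bp downstream.

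The rest of complex III was weak. Uqcrb (21.6), Uqcr10 (17.3) and Uqcrq (4.21), small subunits with a divergent neighbour gene each, had peaks outside the conservative list; the optimal peak of the first was matched in the upper set of replicate 2 only, that of the second in replicate 1 only and that of the third in neither, while Uqcrb had another promoter peak in that of replicate 1. The Uqcrq summit lay 98 bp from that gene and 94 bp from Gdf9, an oocyte growth factor gene. Uqcrfs1, the Rieske iron-sulfur protein, was the only member of the complex without a promoter peak; a peak at percentile 97.1 lay 3702 bp away.

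Complex IV, cytochrome c oxidase, had promoter peaks at Cox6a1, Cox5a, Cox6b1 and Cox7b, all nuclear subunits around the catalytic core. Cox6a1 had percentile 35.8, and 25.4 and 48.8 in the libraries, 181 bp upstream. Cox5a had percentile 35.4, and 42.0 and 44.6 in the libraries, 774 bp upstream. Cox6b1 had percentile 30.1, and 20.1 and 43.7 in the libraries, in its own intron 608 bp upstream of a TSS inside the gene. Cox7b had percentile 16.5, and 9.47 and 8.31 in the libraries, in its own intron 457 bp upstream of such a TSS. All 4 were in the upper sets of both libraries and in the conservative list, and all lay in the lower 50% of the optimal list by signal. With the gene's 5′ end as the only start site, complex IV had 2 of 18 (11.1%), without Cox6b1 and Cox7b. A window of 500 bp also gave 2 of 18. The shares over all genes were 31.3% and 32.1%. Each library alone also gave a promoter peak to Cox6c and Cox6b2; Cox4i1 had one in replicate 2 and Cox7a2l, a supercomplex factor, in replicate 1.

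Several subunits of complex IV exist in a form known from muscle, lung or testis and in a widely expressed form. None of the 8 genes for such tissue forms (Cox4i2, Cox6a2, Cox6b2, Cox7a1, Cox7b2, Cox8b, Cox8c and, by its prefix in complex I, Ndufa4l2) had a promoter peak in the optimal list, with a 95% Wilson interval of 0.0 to 32.4%. Their median CpG ratio was 0.328. The widely expressed partners Cox6a1, Cox6b1, Cox7b and Ndufa4 had a promoter peak, and Cox4i1, Cox7a2 and Cox8a did not. Without its tissue forms complex IV had 4 of 11 (36.4%, 15.2 to 64.6) and a median CpG ratio of 0.777. Among members with a CpG ratio of 0.5 or more, the counts were 3 of 9 in complex IV, 8 of 9 in complex III, 9 of 15 in complex V, 21 of 44 in complex I and 3 of 4 in complex II. Over all genes with such a ratio 55.7% had a promoter peak, and over those below it 20.3%. Strong peaks lay near some tissue forms outside the window: the nearest summit was at percentile 99.9 and 1964 bp for Ndufa4l2, 96.1 and 2007 bp for Cox6a2, 96.7 and 2637 bp for Cox7a1, and 93.5 and 2985 bp for Cox8b.

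Complex V had peaks over the widest range of strengths after complex I. Atp5g2, 1 of the 3 genes that encode the rotor's c subunit, had percentile 98.4, and 98.2 and 98.7 in the libraries. This peak lay in an intron, 74 bp upstream of a TSS inside the gene (chr15:102671029-102671354). Within 1000 bp of the gene's 5′ end Atp5g2 had only a peak at percentile 21.2. Atp5g1 had percentile 46.2 and lay 170 bp upstream, and Atp5g3 had no promoter peak, so the 3 genes for the same mature protein differed. Atp5mpl, a small membrane subunit, had percentile 97.5, and 96.4 and 97.3 in the libraries, 104 bp upstream. Atp5k, subunit e of the membrane part, had percentile 95.8, and 93.9 and 96.9 in the libraries, 26 bp upstream.

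Of the 5 genes of the catalytic head and central stalk of the ATP synthase, 3 had a promoter peak. Atp5d had percentile 74.6, and 69.9 and 77.3 in the libraries, 101 bp downstream of a TSS. Atp5b, the catalytic beta subunit, had percentile 68.7, and 70.8 and 64.4 in the libraries, in an intron 351 bp downstream of a TSS. Atp5c1, the rotating gamma subunit, had percentile 51.5, and 53.7 and 48.9 in the libraries; its summit lay 102 bp from Atp5c1 and 12 bp from the divergent gene Kin. Atp5a1, the alpha subunit, and Atp5e had none. The calls of Atp5d and Atp5b rest on start sites inside the gene. With the gene's 5′ end as the only start site, Atp5c1 alone of these genes kept a promoter peak. Complex V then had 8 of 17 (47.1%), against 31.3% of all genes. Atp5o, the protein that ties the catalytic head to the peripheral stalk, had its nearest summit 1046 bp away, just outside the window. The optimal peaks of Atp5j2 (9.01) and Atp5l (8.36) were matched in the upper set of replicate 2 only; Atp5l had another promoter peak in that of replicate 1.

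The libraries ordered the members' peaks alike. Of the 48 strongest promoter peaks, 36 were in the upper sets of both libraries, 8 in 1 of them and 4 in neither, namely Ndufb3, Ndufa4, Ndufb6 and Uqcrq. Over all genes with a promoter peak, 6759 of 8567 had their strongest in both upper sets. That is 31.1% of all genes, against 36 of 94 members (38.3%). Of the distinct promoter peaks, 63.3% of the members' and 71.6% of all were in both upper sets. In the conservative list were 39 of the 48 strongest peaks. Of the distinct promoter peaks it held 45 of the members' 60 and 8704 of 10898 over all genes. For the 47 peaks matched within 150 bp in both relaxed lists, Spearman's rho of the ranks was 0.95, and 0.89 over 9878 promoter peaks of all genes; these are descriptions of peaks already selected for reproducibility, which share their libraries. Replicate 2 ranked 27 of the 47 higher. Ndufb5 was not matched in replicate 2.

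**Figure D3:**
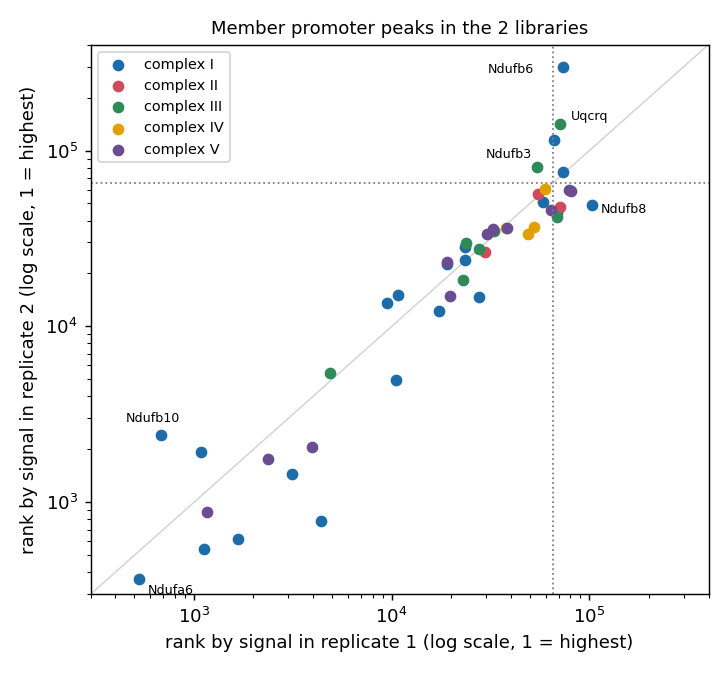
Rank by signal of the strongest promoter peak of 47 members in replicate 1 (horizontal) and replicate 2 (vertical), both on log scales with 1 the highest signal, coloured by complex. Dotted lines mark the size of the optimal list; most points lie along the diagonal, and peaks outside an upper set, such as Ndufb6, Uqcrq and Ndufb8, scatter most.

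The members' summits lay nearer to a TSS than those of all genes. Of the 48 strongest summits, 32 lay upstream (66.7%, against 60.8% of all genes with a promoter peak) and 16 downstream. Within 200 bp of a TSS lay 31 (64.6%, against 49.9%), and the median distance was 120.5 bp against 201 bp. By annotation, 19 summits were intergenic, 14 in introns, 9 in untranslated exon sequence and 6 in coding exons. The annotation was not counted over all genes. The 4 summits of complex IV lay farther out, at a median of 532.5 bp, than the 22 of complex I at 69.0 bp. Just inside the window were Ndufa13 (977 bp) and Ndufa4 (909 bp), and just outside Atp5o (1046 bp) and Ndufs7 (1071 bp).

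Divergent promoters are common in this pathway. A protein-coding gene on the other strand began within 1000 bp upstream of 34 members (36.2%), against 11.1% of all genes. Of the 34, 16 had a promoter peak (47.1%, 95% Wilson interval 31.5 to 63.3), an interval that includes the 57.4% of all genes with a divergent neighbour. Of the 60 members without one, 32 had a promoter peak (53.3%, 40.9 to 65.4), against 37.2% of all such genes. The median percentile was 21.9 for members with a divergent neighbour and 68.3 for the others, against 42.6 and 51.4 over all genes. In complex III all 4 genes with a divergent neighbour had a peak, at a median of 19.4, but 3 of 4 did in replicate 1 alone, 2 of 4 in replicate 2 alone and 1 of 4 in the conservative list. In complex I it was 6 of 19, at a median of 18.1.

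In all, 17 of the 48 strongest peaks also lay within 1000 bp of a TSS of another protein-coding gene, 7 in complex I, 2 in complex II, 4 in complex III, 4 in complex V and none in complex IV. A pair of this kind joins mitochondrial genes: the Ndufb5 peak (percentile 23.3) lay 32 bp from that gene and 108 bp from Mrpl47, a mitochondrial ribosomal protein gene. Such a peak cannot be assigned to 1 gene. The share of such peaks over all genes with a promoter peak is not given here, so the count cannot be called particular to the members.

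The CTCF motif was found under 28 of 60 distinct promoter peaks of members (46.7%, 95% Wilson interval 34.6 to 59.1). It was found under 55.3% of all promoter peaks, 80.9% of the other optimal peaks and 5.05% of gene 5′ ends without a promoter peak. Among promoter peaks in the lower 50% by signal, 11 of 32 members' peaks and 39.1% of all had a match. Counting genes, 25 of 94 members had their strongest promoter peak over a match, against 22.9% of all genes. In 18 of the 25 the match ran on the same strand as the gene, and in 7 on the other, with no count over all genes to set beside these.

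Several members' peaks lay on closely similar sequences. Of the 28 matches, 9 (32.1%) were in soft-masked sequence, the lower-case bases by which the assembly marks interspersed and simple repeats, against 14.8% of matches under all promoter peaks. At the strongest peak of a member there were 8: Ndufa3, Cox5a, Cox6b1, Cox7b, Atp5b, Atp5f1, Atp5j2 and Atp5l. All 3 matches of complex IV were of this kind, and Cox6a1 had no match. The 6 most alike, picked after they were seen, are shown so that their shared core can be read, with the 19 matched bases in capitals as above.
Ndufa3 (chr7:3617033-3617061, forward strand): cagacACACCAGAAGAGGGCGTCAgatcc
Cox5a (chr9:57520507-57520535, forward strand): tgtgaTGTCCAGAAGAGGGTGTCAgattc
Cox6b1 (chr7:30624072-30624100, forward strand): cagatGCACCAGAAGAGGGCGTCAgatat
Cox7b (chrX:106018948-106018976, forward strand): caggcACACCAGCAGGGGGCATCAgatcc
Atp5j2 (chr5:145192569-145192597, forward strand): cagatGCGCCAGAAGAGGGCGTCAgatct
Atp5l (chr9:44919023-44919051, reverse strand): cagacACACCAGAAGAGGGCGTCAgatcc
The windows of Ndufa3 and Atp5l were identical over 29 of 29 bases. Over the 15 pairs of the 6, identical bases ran from 17 to 29 with a median of 25. Over all 8 soft-masked windows the median was 19, and over the 17 windows outside soft-masked sequence it was 13 (range 5 to 20), a base level that the motif itself sets.

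Peaks on soft-masked matches were, at the median, weaker and farther from the TSS. The 8 had a median percentile of 32.8 (8.36 to 68.7) and lay 148 to 807 bp from a TSS. The 17 on other matches had a median of 93.1 (21.7 to 99.4) and lay 5 to 977 bp away, so the ranges of distance overlapped. Over the members' distinct promoter peaks, the median distance was 521 bp for the 9 on soft-masked matches and 107 bp for the 19 on other matches. Over all promoter peaks with a match, the median percentile was 39.6 in soft-masked sequence and 61.5 elsewhere, and the median distance 591 and 223 bp. The difference in distance and signal at the members therefore had the same direction as over all genes.

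**Figure D4:**
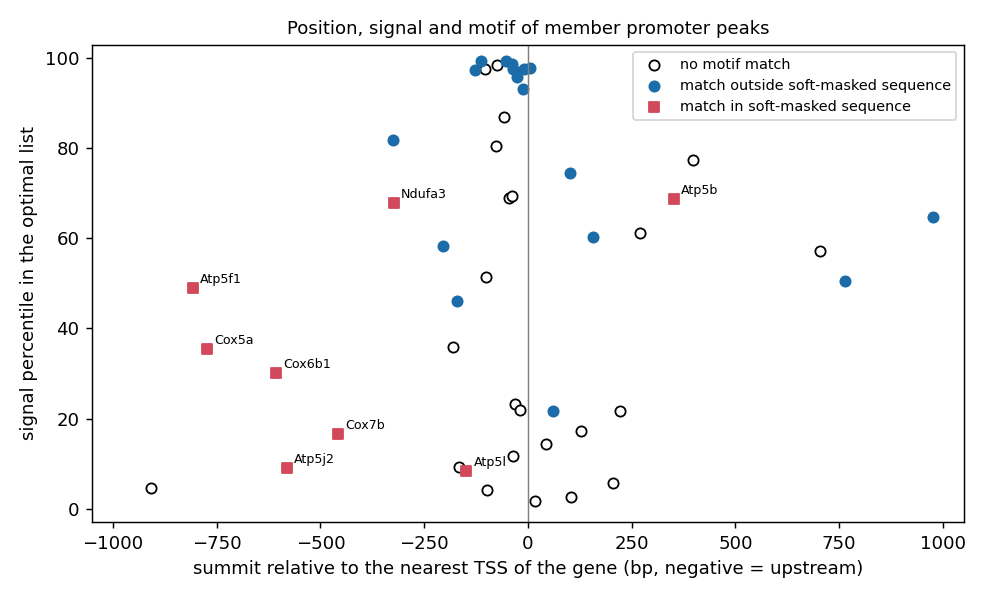
Signal percentile (vertical) of the strongest promoter peak of 48 members against its distance from the nearest TSS of the gene in bp (horizontal, negative is upstream), by kind of motif match. The 11 peaks above percentile 90 lie within 200 bp of a TSS, and the 8 squares, matches in soft-masked sequence, lie 148 to 807 bp away with percentiles of 68.7 or less.

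Of the 46 members without a promoter peak, 41 had a summit in the window in the authors' relaxed list of both libraries pooled. That list gave one to 89 of all 94 members (94.7%), to 94.2% of genes in the members' middle range of CpG ratio and to 71.6% of all genes. The 5 without even such a summit were Ndufa1, Ndufa9, Cox7b2, Cox8b and Cox8c. In the upper set of at least 1 library 12 of the 46 had a promoter peak, and Ndufs8, Cox6b2 and Cox6c had one in both. Ndufs8 and the assembly factor gene Ndufaf8 had a promoter peak in the conservative list although the optimal list held none there. Absence from the optimal list therefore does not show absence of binding. The nearest optimal summit lay within 5 kb of 20 of the 46 genes and beyond 50 kb of 2, Ndufs4 (68051 bp) and Cox7c (191357 bp). Ndufa9 followed at 42146 bp, and the nearest after Atp5o and Ndufs7 was Ndufa7 at 1438 bp, from a peak at percentile 95.7.

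Across the alternatives tried other than the upper 50% by signal, 27 members kept a promoter peak in every setting and 29 lacked one in every setting. The call of the other 38 depended on the window, the start sites, the list or the library. Such counts were not made over all genes, so they cannot be called particular to the members.

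Genes that serve the same pathway were counted in the same way, against the 39.4% of all genes. The median CpG ratio of the 6 lists ran from 0.719 to 0.787, and among all genes with a ratio in the members' middle range 56.6% had a promoter peak. Among assembly factors outside the prefixes 23 of 44 had a promoter peak (52.3%), led by Cox14, an assembly factor of complex IV, at percentile 99.0. Ttc19 (86.4), for complex III, and Cox19 (83.9), for copper delivery to complex IV, followed. Citric acid cycle genes had one at 7 of 13 (53.8%), led by the succinyl-CoA ligase gene Sucla2 at 99.7, fumarase (Fh1) at 84.6 and Suclg1 at 72.2. Genes for electron carriers and coenzyme Q synthesis had one at 12 of 19 (63.2%), with Coq2 at 96.2, Coq8b at 69.9 and cytochrome c (Cycs) at 62.3.

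Genes for expression of mitochondrial DNA had a promoter peak at 8 of 15 (53.3%), with the mitochondrial RNA polymerase gene Polrmt at 59.0, the packaging factor Tfam at 41.8 and Ssbp1 at 32.3. Regulators of the pathway's nuclear genes had one at 9 of 13 (69.2%, 95% Wilson interval 42.4 to 87.3), with Gabpb2 at 82.4 and Gabpb1 at 80.6, partners of the ETS factor GABP, and the coactivator Pprc1 at 72.9. Mitochondrial ribosomal protein genes had one at 36 of 78 (46.2%), led by Mrpl34, Mrps33 and Mrps16 at 98, 97.9 and 97.8, and 9 of the 78 reached the highest decile. The Wilson intervals of all 6 lists include the members' 51.1%.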

How the data were processed

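CTCF ChIP-seq peak lists (narrowPeak, mm10, per the notes deposited beside them) of 2 newborn kidney libraries were used. The authors deposited 1 list per library and 1 of both pooled (300000 peaks each), and the optimal (65482) and conservative (59444) lists thresholded by irreproducible discovery rate. The names of the aligner and caller, the filters and the thresholds were not given in the sources used here. The deposited signal value, whose scale depends on library depth, served only to order the peaks of each list by percentile. The deposited −log10 q-value column was not used to rank peaks, since many peaks share its highest value. The deposited summit offset gave each summit. Depth is unknown.

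Summits on 20 chromosomes (65470 optimal peaks) were set against 93187 TSSs of GENCODE M21 on GRCm38.p6, with Python 3.11.15, numpy 2.4.6, pandas 2.3.3, scipy 1.17.1 and pysam 0.24.0. Genes were merged by symbol, which joins 2 records of Atp5o. The CTCF matrix was learned on odd-numbered chromosomes outside soft-masked bases, and controls lay 2000 bp from summits. Promoter words were searched on both strands from 250 bp before to 50 bp after the gene's 5′ end. Assignment and motif search were tested on simulated data. With 1 group there is no comparison of conditions, and no test was made: counts are given with 95% Wilson intervals beside those of all genes, which are not independent replicates. Alternatives changed the window, start sites, list, library and motif threshold.

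The members, complexes and gene lists were chosen with earlier results of these data known. Values are printed for up to 5 members per complex with the highest-signal peak, all of complex II, tissue forms and their partners, up to 4 members in 1 upper set only, up to 4 with shared peaks, the 3 nearest and 3 farthest genes without a peak, and up to 3 genes per further list; other members named with values, such as the weakest peaks and those on soft-masked matches, were chosen after their values were seen. Values of 1 member are not reported here, although it is included in the counts.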

Additional observations from a re-analysis of the deposited data

How the results depend on the processing

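The share of members with a promoter peak ran from 43.6% (conservative list) to 60.6% (window of 2500 bp) over all alternatives but 1. Over all genes these 2 shares were 36.6% and 49.9%. Among genes in the members' middle range of CpG ratio, the conservative list gave 45.7% of members and 52.9% of all genes. There the window of 2500 bp gave 60.9% and 68.1%. With only the upper 50% of the optimal list by signal, 28.7% of members had a promoter peak, against 19.8% of all genes. Complex I then had 32.6%, complex II 25%, complex III 55.6%, complex IV 0.0% and complex V 35.3%. Fewer peaks enter by construction. In the conservative list complex III fell to 55.6%. Leaving out either library gave 48.9 to 55.3% of members, 41.3 to 50% in complex I, 50 to 75% in complex II, 66.7 to 77.8% in complex III, 38.9% both times in complex IV and 64.7 to 76.5% in complex V. The members' median percentile was 48.9 without replicate 1 (50.9 over all genes, so the direction turned) and 57.8 without replicate 2. The SD between the libraries was 6.29, and the cause was not tested. Each of these values comes from a library's own upper set of peaks. For the optimal peaks in their upper sets the members' medians were above those of all genes in both libraries. Peaks outside an upper set are left out there, so these medians cannot settle the direction. With a motif score that 1 in 100000 control positions passed, 10% of members' promoter peaks had a match (15.2% of all promoter peaks). Without replicate 1, 5 members lost and 9 gained a promoter peak, and without replicate 2, 8 lost and 6 gained one. No paired analysis was possible because the libraries form 1 group. The unknown depth limits what absence of a peak can show.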

Other observations

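Promoter words of factors known to act on nuclear genes of the respiratory chain were counted from 250 bp before to 50 bp after the gene's 5′ end, on both strands. The word CCGGAAG, bound by ETS factors such as GABP, was in 18 of 94 members (19.1%) and in 10.9% of all genes. The word of NRF1, GCGC followed by any base, T and GCGC, was in 15 members (16.0%) and in 6.02% of all genes, and AANATGGCG, of YY1, in 5 members (5.32%) and in 2.91%. Among genes in the middle 50% of the members' range of CpG ratio, the shares of members and of all genes were 13% and 17.8% for the ETS word, 15.2% and 9.31% for the NRF1 word, and 4.35% and 4.89% for the YY1 word. A promoter CTCF peak was present at 10 of the 18 members with the ETS word, at 7 of the 15 with the NRF1 word and at 0 of the 5 with the YY1 word. Over all genes these counts were 1269 of 2358, 729 of 1309 and 341 of 633. A word is a run of letters, not a site of binding, and no binding of these factors was measured here.

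Near Ndufs1, a core subunit gene of complex I without a promoter peak, a peak at percentile 99.3 lay 4420 bp from the nearest TSS.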
